A study of Mus musculus with 2 samples.

Results

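Arterial endothelial cells, which line the arteries and arterioles, were examined in single-cell RNA libraries of mouse striatum. They were selected on the counts themselves. A cell was taken as endothelial when it had at least 300 detected genes and 1 or more unique molecular identifier (UMI, a tag that marks 1 captured RNA molecule) for at least 4 of the 7 genes *Cldn5*, *Flt1*, *Ly6c1*, *Slco1a4*, *Itm2a*, *Pglyrp1* and *Adgrl4*. It was taken as arterial when at least 2 of the 5 gate genes *Gkn3*, *Bmx*, *Sema3g*, *Vegfc* and *Mgp* were detected as well. This gave 182 arterial cells among 1552 endothelial cells and 12262 cells in all. The 1123 endothelial cells with none of the 5 gate genes served as the reference, and 247 cells with exactly 1 belonged to neither group.

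The study dissociated the striatum, the input nucleus of the basal ganglia, to describe its astrocytes. There were 2 droplet libraries, replicates 1 and 2 of 1 condition, from untreated mice aged 8 to 10 weeks by the labels, so no genotype or treatment was compared. The labels give the strain as C57/Bl6J while the extraction protocol names C57BL/6NTac, and the tissue as brain, enriched for glia. The methods describe several male mice, slightly younger than the labels say, and more cells than these libraries hold, without saying how the mice were divided between libraries. The p-values therefore measure only the spread between these libraries, which may be technical. Library 1 had 6978 barcodes with 44597660 UMIs in total (median 3852), and library 2 had 5437 with 37982720 (median 5375). The labels name both the second and the third version of the 10x kit without saying which library was made with which, so kit and library cannot be told apart. The libraries had 9 barcode sequences in common, none of them on an arterial cell.

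In the brain, arteries bring blood under pressure into the tissue, capillaries exchange solutes with it and veins drain it, and the endothelium of each segment expresses a graded programme of its own. Arterial identity is set by VEGF and Notch signalling and by SOX factors of the F group, and arterial endothelium is known for elastic matrix, for gap junctions that carry dilating signals along the vessel and for signals to the smooth muscle around it. Most nutrient transporters of the blood-brain barrier are concentrated in capillaries.

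The 250 bases before the RefSeq start sites (GRCm38.p6) of *Gkn3* (chr6:87388936-87389185, minus strand) and *Bmx* (chrX:164258194-164258443, minus strand) are shown as examples. Both gate genes, like *Sema3g*, were at 0 UMIs in smooth muscle cells and were read in at most 2 astrocytes of each library. Capitals mark the letters TGGGAA, the core bound by the Notch effector RBPJ, and ACAAT, a core bound by SOX factors, searched on both strands, and the matches do not overlap.

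Gkn3: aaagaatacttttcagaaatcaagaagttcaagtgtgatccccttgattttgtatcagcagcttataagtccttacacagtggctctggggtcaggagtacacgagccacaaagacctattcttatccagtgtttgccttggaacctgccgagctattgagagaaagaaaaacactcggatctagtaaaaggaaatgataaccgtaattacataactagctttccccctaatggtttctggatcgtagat

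Bmx: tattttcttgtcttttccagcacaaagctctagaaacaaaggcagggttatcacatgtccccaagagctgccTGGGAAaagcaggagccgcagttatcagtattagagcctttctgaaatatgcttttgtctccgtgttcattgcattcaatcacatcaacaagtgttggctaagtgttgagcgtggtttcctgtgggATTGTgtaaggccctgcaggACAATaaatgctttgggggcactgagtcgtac

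The window of *Bmx* held TGGGAA at 1 place and ACAAT at 2, of which 1 is read on the other strand, and that of *Gkn3* held neither. The windows of *Sema3g* (chr14:31217623-31217872, plus strand) and *Vegfc* (chr8:54077282-54077531, plus strand) held neither motif. Over 32851 promoters, 21.6% held the RBPJ core and 27.7% the SOX core in a window of this length, so a match describes letters and marks no site.

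The gate took 86 of 870 endothelial cells in library 1 (9.89%, exact binomial 95% interval 7.98 to 12.1) and 96 of 682 in library 2 (14.1%, 11.6 to 16.9), a mean of 11.98% ± 2.96 (SD, n = 2). These intervals cover counting error only. With every cell thinned to 2000 UMIs before the gate and shallower cells left out, the mean was 8.04%.

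All 5 gate genes were read in arterial cells of both libraries. Their levels chose the cells and are given as a description, in CPM (UMIs of the summed cells scaled to a total of 1000000). *Sema3g*, a secreted semaphorin, was detected in 86.05% and 84.4% of arterial cells of libraries 1 and 2, at 279.7 and 232 CPM. *Gkn3*, a gastrokine family gene that marks brain arteries, was detected in 58.1% and 54.2%, at 457 and 675 CPM. In each library 3 cells held 39.5% and 31.9% of its UMIs. *Vegfc*, a ligand of the VEGF family, was at 86.2 and 163 CPM, and *Bmx*, a non-receptor tyrosine kinase of arterial endothelium, at 92.2 and 87.2 CPM. *Mgp*, matrix Gla protein, an inhibitor of calcification, was at 722 and 555 CPM. The commonest pair was *Sema3g* with *Mgp* in library 1, in 51 of 86 cells, and *Sema3g* with *Vegfc* in library 2, in 44 of 96.

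Outside the endothelium, *Mgp* was read in several classes. *Vegfc* was read in fibroblasts with 3 and 2 UMIs, where counts of 0 for *Gkn3*, *Bmx* and *Sema3g* allow up to 57.7 and 76.5 CPM. Other cells were put in classes by at least 4 markers of their own. The 14 and 25 smooth muscle cells of the libraries had 1224 and 2584 CPM of *Mgp*, above the arterial cells of the same library. These values rest largely on 1 smooth muscle cell per library, which held 102 of 149 and 361 of 600 UMIs. The 67 and 81 pericytes had 679.8 and 1101 CPM of *Mgp* and the 14 and 11 fibroblasts 2367 and 280.4 CPM. Among fibroblasts of library 1, 1 cell held 95 of the 123 *Mgp* UMIs. In smooth muscle cells *Gkn3*, *Bmx*, *Sema3g* and *Vegfc* were at 0 UMIs in both libraries, which allows up to 24.6 and 12.9 CPM. As a background for shares of cells, astrocytes (median 1842 and 3004 UMIs) held *Sema3g* in 0.119% of 839 cells and in 0 of 942, which allows up to 0.318%, and *Mgp* in 1.67% and 0.743%. Astrocytes were shallower than arterial cells (median 8007 and 6127 UMIs), so these shares are a low background for them.

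**Figure D1:**
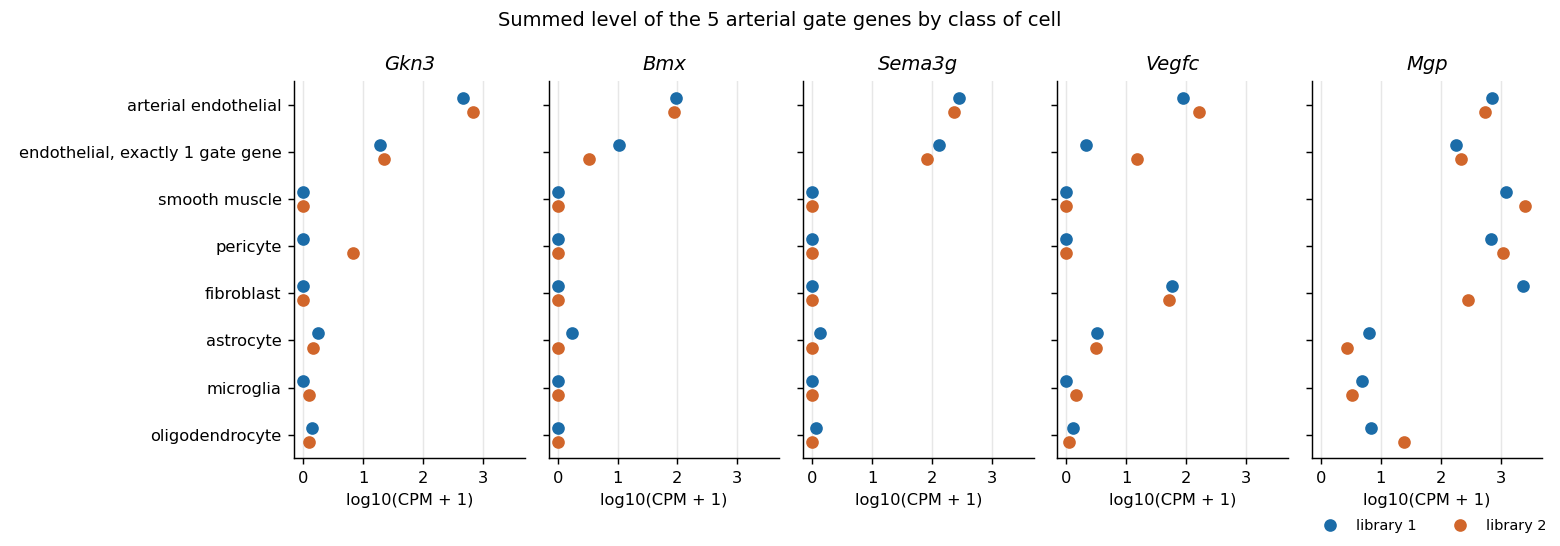
Level of each of the 5 gate genes, as log10(CPM + 1), in the summed cells of each class, with 1 point per library. *Gkn3*, *Bmx* and *Sema3g* stand near 0 in smooth muscle cells, astrocytes, microglia and oligodendrocytes, while *Mgp* in smooth muscle cells (1224 and 2584 CPM) lies above its level in arterial cells (722 and 555 CPM). In smooth muscle cells 1 cell per library held 102 of 149 and 361 of 600 *Mgp* UMIs.

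To check the label on values the gate had not used, each gate gene was left out in turn, and cells with at least 2 of the other 4 were compared with cells that had none of them. Counts were summed per library and group and compared with a quasi-likelihood test in edgeR, blocked by library and adjusted by Benjamini-Hochberg over all genes tested. Every gate gene was higher in cells chosen by the other 4. *Gkn3* was at 484 and 714 CPM against 5.88 and 8.69 CPM (CPM scaled by TMM, a normalization for composition, as for single genes in arterial, reference and venous cells below, while sums over lists and levels in other classes are raw), a log2 fold change of 6.14 ± 0.17 (SE, n = 2 libraries, edgeR adjusted p = 1.02e-15). *Vegfc* was at 90.7 and 138 CPM against 0.347 and 5.68 CPM and differed by 4.89 ± 0.35 on the log2 scale. *Bmx* was at 88.4 and 76.3 CPM against 3.11 and 0.967 CPM and differed by 4.65 ± 0.34. For these 3 genes arterial and reference libraries did not overlap, and the reference stood close to 0. With only 2 libraries per group, a lack of overlap, here and below, is a description, and its share over all genes is not given. *Mgp* was at 719 and 625 CPM against 50.7 and 76.95 CPM and differed by 3.41 ± 0.18, and *Sema3g* at 289 and 254 CPM against 36.1 and 29.9 CPM, a difference of 2.995 ± 0.17. The groups did not overlap here either, although the reference held more of both genes. The difference of *Mgp* was 6.03 when cells with markers of any other class were left out, which kept 24 and 39 arterial cells. The edgeR adjusted p-values of the other 4 genes were 1.27e-11 for *Vegfc*, 3.36e-08 for *Bmx*, 4.82e-07 for *Mgp* and 1.29e-05 for *Sema3g*. Genes called higher made up 5.31% of those tested with *Gkn3* left out, 4.71% with *Bmx*, 3.65% with *Sema3g*, 5.43% with *Vegfc* and 3.51% with *Mgp* left out.

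Cells just inside the threshold had 2 gate genes (33 and 51 cells) and those just outside had 1 (135 and 112 cells). Arterial markers that the gate did not use, summed in raw CPM, stood at 5924 and 6376 CPM with no gate gene, 7964 and 7055 CPM with 1, 6700 and 9094 CPM with 2 and 11972 and 12716 CPM with all 5. Library 1 was lower with 2 gate genes than with 1, and both libraries were higher with 3 or more than with fewer. The 5 venous genes *Slc38a5*, *Nr2f2*, *Lcn2*, *Icam1* and *Il1r1*, summed, ran the other way, from 439.6 and 629 CPM with no gate gene to 283 and 353 CPM with 2 and 63.3 and 77.1 CPM with 5. *Slc38a5* made up most of the sum in the reference, at 280.3 and 476 CPM against 44.1 and 112 CPM in arterial cells. *Nr2f2*, a transcription factor of venous endothelium, was at 51.1 and 94.3 CPM in arterial cells and 61.2 and 88.9 CPM in the reference (all raw). Smooth muscle markers stood at 149 and 154 CPM with none, 868 and 1190 CPM with 2 and 801 and 4003 CPM with 5. Median depth was 2818 and 3214 UMIs per cell with no gate gene, 6413 and 6783 with 2 and 15843 and 7214 with 5, and its part in these values was not tested.

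**Figure D2:**
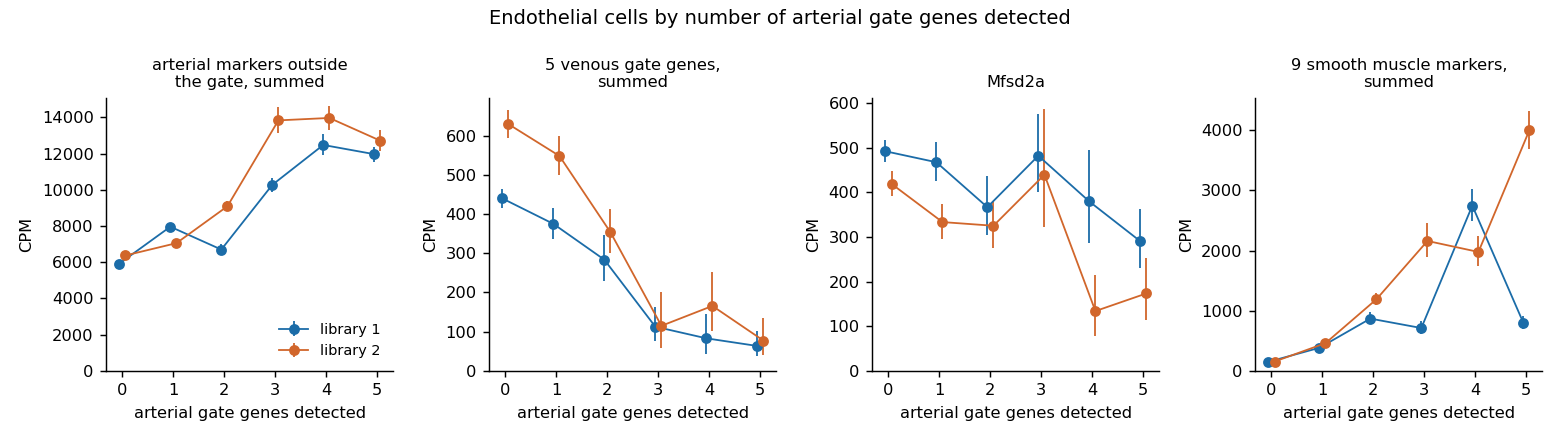
Levels in CPM (vertical axes, from 0) of 4 measures the gate did not use, in endothelial cells by the number of arterial gate genes detected (horizontal axes), with 1 line per library and exact Poisson 95% intervals. The summed arterial markers are higher with 3 to 5 gate genes than with none in both libraries, and the summed venous genes, mostly *Slc38a5* in cells with no gate gene, run from 439.6 and 629 CPM down to 63.3 and 77.1 CPM.

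Markers of other cells and depth moved with the arterial group. Arterial cells had a median of 8007 and 6127 UMIs, against 2818 and 3214 in the reference. Their median mitochondrial share of UMIs was 3.55% and 4.6%, against 5.09% and 5.24% in the reference. Of the 9 smooth muscle markers, 8 were read in arterial cells of library 1, where *Cnn1* was at 0, and 9 in library 2, and their sum was 1084 and 1944 CPM against 149 and 154 CPM (raw), with *Myl9* the most abundant at 322 and 459 CPM (raw). All 8 pericyte markers were read, at 3427 and 5288 CPM against 1169 and 1693 CPM, led in arterial cells by *Rgs5* at 2104 and 2637 CPM (raw). The 8 fibroblast markers summed to 142 and 305 CPM against 53.1 and 65.2 CPM, led in arterial cells by *Col1a2* in library 1 and *Dcn* in library 2, with *Lum* at 0 in the reference. At least 2 markers of 1 of these classes were present in 28 of 86 and 33 of 96 arterial cells, and in 13.7 and 15.8% of reference cells. List counts against the reference below are also given with these cells, called cells with mural markers, left out of both groups, which kept 58 and 63 arterial cells, and against a reference matched in depth. Cells with markers of any other class made up 67.4% and 53.1% of arterial cells and 50.8% and 32.1% of reference cells. Leaving them out kept 28 and 45 arterial cells.

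Of 10752 genes tested, 670 were higher in arterial than in reference cells (6.23%) and 533 were lower (4.96%) at an edgeR adjusted p under 0.05. With 2 libraries the fit leaves 1 residual degree of freedom per gene, and it rested on 1 spread shared by all genes, so the p of a gene does not rest on that gene's own spread. DESeq2 called 226 of the same genes, all in the same direction, and higher genes made up 69.5% of its calls against 55.7% of those of edgeR. Of 9352 genes tested without cells with mural markers, 2.06% were called higher and 1.12% lower, and with the reference matched in depth 2.64% and 1.68% were. With the shared spread counted in, those fits had 8.54 and 7.76 degrees of freedom per gene, against 10752 in the main fit. A call lost there need not mean a smaller difference. Calls higher and lower made up 1.46% and 0.642% by DESeq2, 1.4% and 0.307% with no replicate block, 5.86% and 4.73% with doublets removed, 5.98% and 4.56% with venous cells taken out of the reference, 3.51% and 2.32% with *Mgp* not in the gate, 2.12% and 2.07% with cells thinned before the gate and 3.31% and 2.77% without cells with markers of any other class, and counts under these settings below are read beside these shares. Of the 1203 genes called, 1010 could still be tested without cells with mural markers, 979 of them kept their direction and 284 were called again, 2 of these in the opposite direction.

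The 10 largest rises among genes with at least 20 CPM ran from 3.99 to 5.49 on the log2 scale. *Fbln5* and *Fbln2* (fibulins of elastic fibres), *Eln* (elastin), *Col18a1* (a basement membrane collagen) and *Igfbp3* (an insulin-like growth factor binding protein) encode secreted proteins. *Acta2*, *Myh11* and *Tagln* encode the contractile apparatus of smooth muscle, and *Olfr558* and *Sncg* complete the set. Without cells with mural markers 7 of the 10 could be tested and 6 were called, with *Acta2*, itself one of the markers by which cells were left out, at 0.09.

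*Fbln5* (chr12:101746565-101819055, minus strand) was at 55.9 and 90.8 CPM against 0.35 and 0.498 CPM, where the reference rested on 2 UMIs in all. Its ratio over both libraries was 184, with a counting interval of 49.9 to 1531. It was read in 16.3% and 17.7% of arterial cells, at 0 UMIs in the smooth muscle and pericyte classes and at 308 and 179 CPM in fibroblasts. Its UMIs were uneven over cells, with 66.1% and 67.5% of them in 3 cells of each library. *Col18a1* was at 75.9 and 69.2 CPM against 0.7 and 0.498 CPM, a ratio of 123, with a counting interval of 41.3 to 605, and at 394 and 422 CPM in smooth muscle cells.

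*Eln* (chr5:134702593-134747323, minus strand) was at 89.8 and 64.7 CPM against 3.85 and 2.99 CPM, a log2 fold change of 4.10 ± 0.31, and 4.66 without cells with mural markers. *Fbln2* was at 121 and 91.95 CPM against 6.65 and 2.99 CPM, a difference of 4.14 ± 0.27, and at 0 UMIs in smooth muscle cells. *Igfbp3* was at 336 and 85.1 CPM against 17.2 and 6.97 CPM, a difference of 3.99 ± 0.20, and was read in 61.6% and 37.5% of arterial cells. For all 3 genes both arterial libraries lay above both reference libraries, and DESeq2 gave an adjusted p of 3.62e-12 for *Eln*, 8.55e-16 for *Fbln2* and 2.44e-23 for *Igfbp3*.

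Arterial markers outside the gate were mostly higher. Of the 25 listed, 23 were tested, 20 rose and 1 fell, with a median log2 fold change of 1.75, beside -0.02 over all genes tested. Without cells with mural markers 17 of 22 rose and 0 fell, against the depth-matched reference 17 of 22 rose and 0 fell, and DESeq2 called 16 higher and 0 lower. *Cytl1* and *Rbp7* were too low to test. Lists share genes, and *Eln*, *Fbln2*, *Fbln5*, *Hey1*, *Efnb2*, *Gja4*, *Gja5*, *Edn3*, *Sox17*, *Tmem100*, *Unc5b* and *Cxcl12* of this list count again below.

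*Alpl*, tissue-nonspecific alkaline phosphatase, a classical stain of brain arterioles, was at 183 and 253 CPM against 24.2 and 41.3 CPM, a log2 fold change of 2.71 ± 0.16. It was read in 70.9% and 76.04% of arterial cells and 7.24% and 14.4% of reference cells. *Tm4sf1*, a membrane protein of the transmembrane 4 family, was at 1715 and 1706 CPM against 438 and 640.1 CPM and rose by 1.69 ± 0.11. Arterial libraries lay above reference libraries for both. *Crip1* rose by 1.81 ± 0.12, and was at 8527 and 8145 CPM in smooth muscle cells. *Unc5b*, a netrin receptor of arteries, rose by 1.28 ± 0.17, *Cdh13*, T-cadherin, by 2.34 ± 0.30, and *Glul*, glutamine synthetase, by 1.13 ± 0.10. *Slc26a10* (1.80 ± 0.22) and *Mecom*, a zinc finger factor (0.70 ± 0.14), rose, but neither was called by DESeq2, without cells with mural markers or against the depth-matched reference. *Nebl* rose (0.58 ± 0.12) and was not called by DESeq2.

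*Cxcl12*, the chemokine ligand of CXCR4, went the other way, at 1179 and 1717 CPM against 1745 and 2213 CPM, a log2 fold change of -0.47 ± 0.10. It was not called by DESeq2, without cells with mural markers or against the depth-matched reference. *Clu* and *Tsc22d1* did not pass the test, at -0.15 ± 0.13 and 0.08 ± 0.10, and *Clu* stood at 1.32 when cells with markers of any other class were left out.

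**Figure D3:**
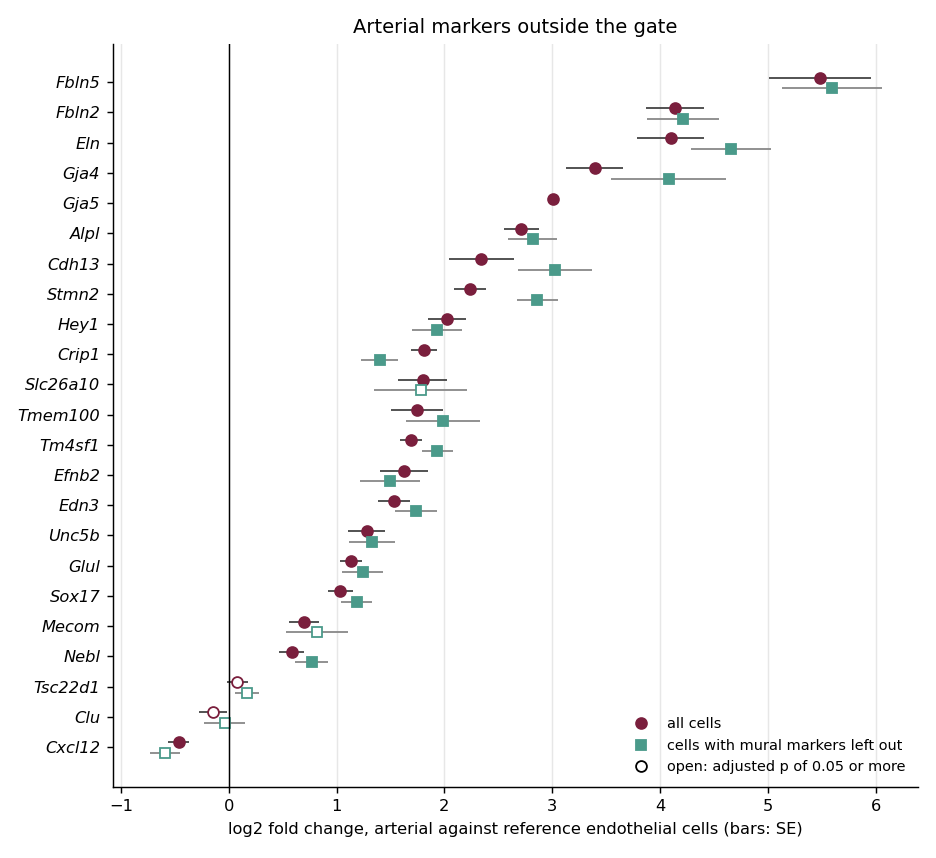
Log2 fold change (horizontal axis, bars SE) of the 23 tested arterial markers outside the gate, arterial against reference cells, in all cells (circles) and without cells with mural markers (squares), filled where called by edgeR. *Gja5*, read in no reference cell, has no bar. *Fbln5* stands highest at 5.49, and *Cxcl12* lies below 0 at -0.47.

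*Stmn2*, a microtubule regulator that neurons also express, was at 341 and 213 CPM against 90.3 and 30.4 CPM, a log2 fold change of 2.24 ± 0.15. Neuroblast markers moved with it. All 7 were read in arterial cells, summing to 852 and 348 CPM against 391 and 112 CPM (raw), with *Stmn2* itself the most abundant, and 5 of 7 rose. Higher and lower calls were 7 and 0 of 7 without cells with mural markers, 1 and 0 of 7 against the depth-matched reference and 1 and 0 by DESeq2, and 2 and 1 with doublets removed. *Stmn2* was read in 47 and 40 arterial cells and differed by 3.34 when cells with markers of any other class, neuroblasts included, were left out. *Dlx2*, an interneuron factor, was read in 6 and 4 cells, of which 3 held 86.2% and 90.9% of its UMIs, while *Cd24a*, a surface protein, was read in 32 and 18 cells, with 44.8% and 25% in 3 cells.

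In the Notch pathway, of 20 genes 19 were tested, 10 rose and 2 fell, with a median log2 fold change of 0.63. With mural-marker cells left out 4 of 15 rose and 0 fell, against the depth-matched reference 7 of 19 rose and 0 fell, and DESeq2 called 4 higher and 0 lower. The median was 0.11 with mural-marker cells left out and 0.37 without cells with markers of any other class. With at least 3 gate genes it was 0.91. Among ligands, *Jag2* was at 253 and 232 CPM against 133 and 114 CPM (0.97 ± 0.14) and *Jag1*, which was not called by DESeq2, rose by 1.03 ± 0.17. *Dll4*, the ligand of arterial and tip cells, was at 73.9 and 64.7 CPM against 54.3 and 49.3 CPM and did not pass (edgeR adjusted p = 0.181), and *Dll1* stood at 0.31 ± 0.48. Among receptors, *Notch1* rose by 0.68 ± 0.13 and *Notch4* by 0.63 ± 0.16, neither of them called by DESeq2 or without cells with mural markers, and *Notch2* stood at -0.40 ± 0.33. *Notch3*, the receptor of mural cells, rose by 2.84 ± 0.20, was at 705 and 1056 CPM in pericytes, and was too low to test without cells with mural markers.

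Among Notch targets, *Hey1*, a transcriptional repressor, was at 158 and 134 CPM against 40.95 and 28.9 CPM, a log2 fold change of 2.02 ± 0.17, and at 0 and 4.31 CPM in smooth muscle cells. *Efnb2*, the ephrin that sets arteries apart from veins, was at 51.9 and 99.9 CPM against 22.1 and 23.4 CPM (1.63 ± 0.22). Both were called without cells with mural markers. *Hey2*, *Heyl* and *Nrarp* rose by 2.14 ± 0.47, 1.38 ± 0.37 and 0.69 ± 0.25, but none of the 3 was called by DESeq2 or against the depth-matched reference, nor *Nrarp* without cells with mural markers, where *Hey2* and *Heyl* could not be tested. *Heyl* stood at -0.0104 with *Mgp* not in the gate, and was at 239 and 289.5 CPM in pericytes. *Hes1* stood at -0.24 ± 0.14. *Lfng* and *Mfng*, fringe enzymes that add sugars to Notch receptors, fell (-0.67 ± 0.20 and -0.69 ± 0.20), but neither was called by DESeq2, without cells with mural markers or against the depth-matched reference. The pathway's transcriptional core, *Rbpj* (-0.12 ± 0.24) and *Maml1* (-0.0022 ± 0.36), and *Rfng* (0.11 ± 0.33) did not pass.

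Of 31 extracellular matrix genes, 22 were tested, 12 rose and 2 fell, with a median log2 fold change of 0.75. Without cells with mural markers 6 of 16 rose and 2 fell, against the depth-matched reference 8 of 22 rose and 1 fell, and DESeq2 called 7 higher and 0 lower. With *Mgp*, itself a matrix gene, not in the gate they were 8 higher and 3 lower of 24 (median 0.13), with cells thinned before the gate 4 higher and 1 lower of 14 (median -0.06), and without cells with markers of any other class 4 higher and 2 lower of 14 (median 0.05). *Timp3*, a matrix-bound inhibitor of proteases singled out after its values were seen, was at 2118 and 1082 CPM against 587 and 326 CPM and rose by 1.79 ± 0.11, or 1.88 without cells with mural markers. Arterial libraries lay above reference libraries. *Ltbp1*, which tethers latent TGF-beta to the matrix, rose by 3.05 ± 0.67, was at 460 and 319 CPM in smooth muscle cells and was too low to test without cells with mural markers. The 2 that fell were *Sparcl1* (-0.51 ± 0.10) and *Fn1*, fibronectin (-0.47 ± 0.11). DESeq2 called neither, and *Fn1* was called neither without cells with mural markers nor against the depth-matched reference.

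Of 25 genes of vascular tone, 21 were tested, 7 rose and 1 fell, with a median log2 fold change of 0.25. With mural-marker cells left out 4 of 14 rose and 0 fell, against the depth-matched reference 6 of 21 rose and 0 fell, and DESeq2 called 7 higher and 0 lower. *Edn3*, an endothelin, was at 211 and 198 CPM against 65.1 and 75.2 CPM (1.53 ± 0.15), and *Edn1*, the main constrictor peptide of endothelium, singled out after its values were seen, at 297 and 277 CPM against 129.5 and 138 CPM (1.10 ± 0.14). *Trpv4*, a calcium channel, was at 60.9 and 22.7 CPM against 5.25 and 4.98 CPM (2.78 ± 0.37) and at 0 UMIs in smooth muscle cells. *Ace*, angiotensin-converting enzyme, rose by 2.67 ± 0.41, and both were called without cells with mural markers. *Pde3a* and *Gucy1a1*, enzymes of cyclic nucleotide signalling, rose by 3.56 ± 0.39 and 1.90 ± 0.29. They were at 599.7 and 538 CPM and 320.4 and 302 CPM in smooth muscle cells and could not be tested without cells with mural markers. *Nos3*, endothelial nitric oxide synthase, was at 159 and 142 CPM against 153 and 171 CPM, a difference of -0.10 with a 95% interval of -0.39 to 0.18. *Aplnr*, the apelin receptor, fell by 1.74 on the log2 scale and was not called by DESeq2, without cells with mural markers or against the depth-matched reference. It rested on 6 and 1 UMIs in arterial cells, and its difference was -0.91 in library 1 and -3.12 in library 2.

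Of 20 junction and adhesion genes, 17 were tested, 3 rose and 3 fell, with a median log2 fold change of -0.03. Those called higher and lower were 1 and 1 of 15 without cells with mural markers, 2 and 0 of 15 against the depth-matched reference and 1 and 0 by DESeq2. *Gja4*, connexin 37, was at 84.8 and 88.5 CPM against 7.7 and 6.47 CPM, a log2 fold change of 3.39 ± 0.26, and 4.08 without cells with mural markers. It was also at 222 and 237 CPM in smooth muscle cells and 478 and 534 CPM in pericytes. *Gja5*, connexin 40, had 7 and 9 UMIs in 6 cells of each library and none in the reference, so it was at least 14.4-fold higher, with a floor of 3 counts over both reference libraries. DESeq2 did not call it, and smooth muscle cells, pericytes and fibroblasts held no UMI of it. *Mcam*, an adhesion molecule, rose by 1.39 ± 0.24 and stood at 0.57 without cells with mural markers. It was not called by DESeq2 or without cells with mural markers. *Jam2* (-0.54 ± 0.13), *Esam* (-0.40 ± 0.11) and *Gja1* (-0.55 ± 0.16) fell, but none of the 3 was called by DESeq2, without cells with mural markers or against the depth-matched reference. Without cells with mural markers *Jam2* and *Esam* stood at -0.55 and -0.49, and against the depth-matched reference at -0.33 and -0.19. *Gja1* is also one of the 9 astrocyte markers, of which 6 fell. The tight junction genes *Ocln* (-0.33, 95% interval -0.58 to -0.09) and *Tjp1* (-0.24, -0.47 to -0.01) and *Cdh5*, VE-cadherin (0.24, 0.01 to 0.47), singled out after their values were seen, did not pass after adjustment.

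Barrier transporters were mostly lower. All 26 were tested, 2 rose and 19 fell, with a median log2 fold change of -0.79. Without cells with mural markers 1 of 26 rose and 12 fell, against the depth-matched reference 2 of 26 rose and 13 fell, and DESeq2 called 1 higher and 12 lower. *Tfrc*, the transferrin receptor for iron, was at 126 and 151 CPM against 463 and 418 CPM (-1.67 ± 0.13). *Slc16a1*, the lactate and ketone transporter MCT1, was at 81.8 and 146 CPM against 266 and 455 CPM (-1.65 ± 0.14), and *Slc7a5*, the large neutral amino acid carrier LAT1, at 127 and 285 CPM against 356 and 989 CPM (-1.65 ± 0.13). For all 3 both arterial libraries lay below both reference libraries. *Slc38a5*, a glutamine carrier and one of the venous genes, fell (-2.37 ± 0.15), as did *Lepr*, the leptin receptor (-1.99 ± 0.49), which was not called by DESeq2 or without cells with mural markers.

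The next 4 transporters were singled out after their values were seen. *Slc2a1*, the glucose transporter GLUT1, was at 3916 and 1695 CPM against 4157 and 1852 CPM, a difference of -0.11 with a 95% interval of -0.28 to 0.07. *Mfsd2a*, a lipid transporter that restrains transcytosis in capillaries, was at 375 and 272 CPM against 509.6 and 423 CPM (-0.53 ± 0.12), and was not called by DESeq2, without cells with mural markers or against the depth-matched reference. It stood at -0.61 without cells with mural markers and at -0.36 against the depth-matched reference. The 2 that rose were *Slc6a6*, the taurine transporter, at 1362 and 1879 CPM against 758 and 1187 CPM (0.75 ± 0.10), and *Slc9a3r2*, a scaffold protein of membrane transporters (0.45 ± 0.10), which was not called by DESeq2 or without cells with mural markers. Without those cells *Slc9a3r2* stood at 0.47.

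All 12 capillary markers fell, with a median log2 fold change of -0.81. Of these, 5 were transporters counted above, and *Cxcl12* was also counted above among the arterial markers. With mural-marker cells left out 0 of 12 rose and 8 fell, against the depth-matched reference 0 of 12 rose and 8 fell, and DESeq2 called 0 higher and 6 lower. *Car4*, carbonic anhydrase 4 of the capillary surface, was at 292 and 242 CPM against 1251 and 1353 CPM, a log2 fold change of -2.28 ± 0.12, and was read in 30.2% and 26.04% of arterial cells against 70.9% and 78.1% of reference cells. Pericytes held 1290 and 1022 CPM of it, and without cells with mural markers the difference was -3.97.

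The 10 largest falls lay between -2.06 and -2.97 on the log2 scale, and 7 of them were called without cells with mural markers. *Meox1*, a homeobox factor, was at 2.99 and 1.14 CPM against 28.4 and 20.4 CPM. *F5*, coagulation factor V, was at 4.99 and 2.27 CPM against 35 and 34.8 CPM, and *Ndnf*, a secreted factor, at 21.96 and 77.2 CPM against 146 and 438 CPM. All 3 were lower in both arterial libraries than in the reference of the same library. *Fmo2*, a flavin monooxygenase (-2.54 ± 0.44), and *Fgfbp1* (-2.52 ± 0.47) fell, and *Car4* and *Slc38a5* were also in this set. *Slc7a10* and *Acsbg1* belonged to it as well. They were at 609 and 651 CPM and 467 and 494 CPM in astrocytes. All 9 astrocyte markers were read in arterial cells, at a sum of 1305 and 1716 CPM against 1719 and 1545 CPM (raw). *S1pr1* led the sum in arterial cells, at 577 and 681 CPM against 438 and 531 CPM (raw). It was read in 93.0% and 95.8% of arterial cells and 61.3% and 70.7% of reference cells. The sum need not come from astrocyte RNA, and the part of astrocyte RNA in these values was not tested.

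**Figure D4:**
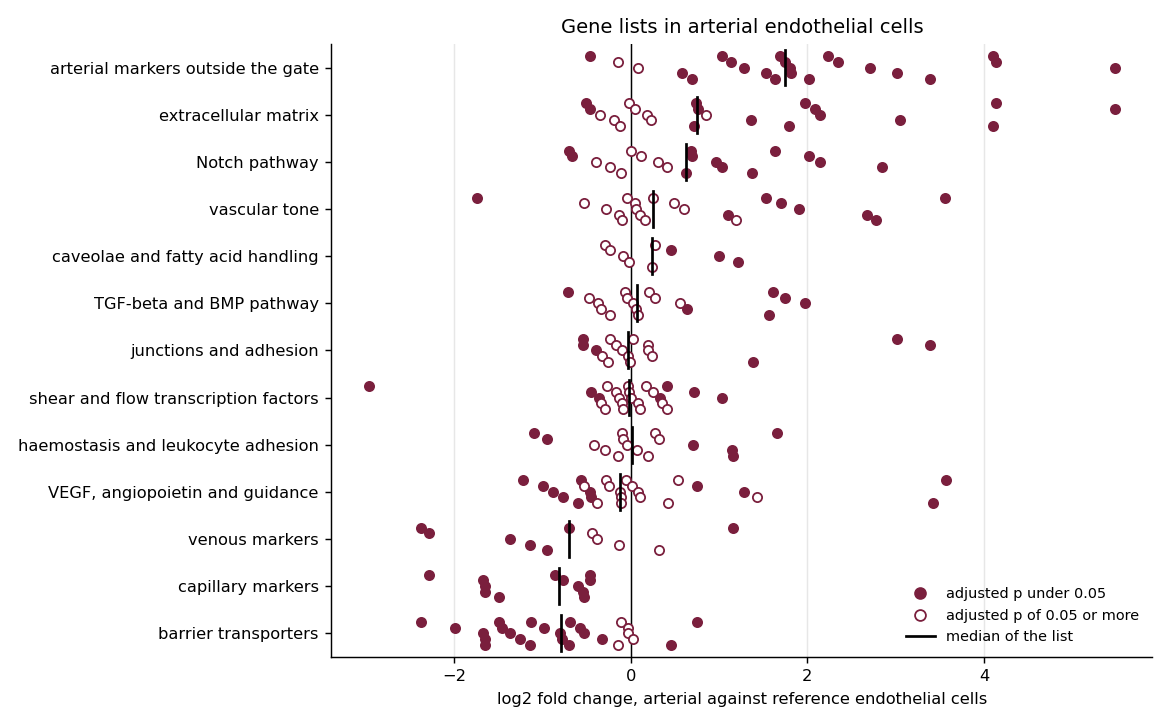
Log2 fold change (horizontal axis), arterial against reference cells, of each tested gene in 13 lists, filled where called by edgeR, with the median of each list as a bar. Medians run from 1.75 for arterial markers to -0.81 for capillary markers.

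Among transcription factors of flow and arterial fate, 4 of 23 rose and 3 fell, beside 6.23% and 4.96% of all genes. The counts were 2 and 1 of 23 without cells with mural markers, 3 and 1 of 23 against the depth-matched reference and 1 and 1 by DESeq2. *Sox17*, an F-group SOX factor of arteries, was at 685 and 622 CPM against 329 and 307 CPM (1.04 ± 0.12), and was read in 94.2% and 85.4% of arterial cells. *Gata2* rose by 0.72 ± 0.14 and was not called by DESeq2. *Klf2*, which shear stress induces, singled out after its values were seen, was at 1305 and 2839 CPM against 1419 and 2994 CPM, a difference of -0.10 with a 95% interval of -0.28 to 0.09. Its levels differed more between libraries than between groups. *Lef1*, an effector of the Wnt signal that maintains the barrier, fell by 0.45 and was not called by DESeq2, without cells with mural markers or against the depth-matched reference.

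In the TGF-beta and BMP pathway 5 of 18 rose and 1 fell. Higher and lower calls numbered 2 and 0 of 17 without cells with mural markers, 4 and 0 of 18 against the depth-matched reference and 2 and 0 by DESeq2. *Tgfb2*, a ligand, was at 186 and 307 CPM against 50.4 and 115 CPM (1.62 ± 0.15). *Tmem100*, which acts downstream of BMP signals in arterial endothelium, rose by 1.75 ± 0.24 and the inhibitor *Smad6* by 1.56 ± 0.24, which was not called by DESeq2 or without cells with mural markers. *Bmp4* rose by 1.98 ± 0.44, but was at 41.9 and 5.68 CPM against 7 and 2.99 CPM, and was not called by DESeq2 or against the depth-matched reference and could not be tested without cells with mural markers. Its difference was 2.40 in library 1 and 0.72 in library 2. Of VEGF, angiopoietin and guidance genes 4 of 26 rose and 8 fell, with higher and lower calls of 3 and 2 of 23 without cells with mural markers, 3 and 2 of 25 against the depth-matched reference and 3 and 1 by DESeq2. *Ntn4*, a netrin, was at 44.9 and 87.4 CPM against 4.55 and 4.98 CPM (3.43 ± 0.32), rose without cells with mural markers as well (2.63), and was at 698 and 715 CPM in smooth muscle cells. *Sema3f*, a repulsive semaphorin, was at 13.97 and 17.03 CPM against 1 UMI in the whole reference, a ratio of 78.3, with a counting interval of 12.98 to 3197. *Kdr*, VEGF receptor 2, fell by 0.76, and *Tek*, the angiopoietin receptor, differed by 0.10 (95% interval -0.14 to 0.35), both singled out after their values were seen.

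Of caveolar and fatty acid genes 3 of 9 rose and none fell. Higher and lower calls were 3 and 0 of 8 without cells with mural markers, 3 and 0 of 9 against the depth-matched reference and 2 and 0 by DESeq2. *Ehd2*, which holds caveolae at the surface, rose by 1.22 ± 0.15, *Cavin3* by 1.00 ± 0.13 and *Cavin2* by 0.46 ± 0.12, and all 3 were called without cells with mural markers. *Cav1* itself, singled out after its values were seen, was at 179.6 and 312 CPM against 136 and 293 CPM and did not pass. Of haemostasis and leukocyte adhesion genes 4 of 16 rose and 2 fell by edgeR, with higher and lower calls of 0 and 0 of 15 without cells with mural markers, 0 and 1 of 15 against the depth-matched reference and 0 and 0 by DESeq2. Immediate early genes, which dissociation can induce and which the transcription blocker actinomycin D in the study's solutions restrains, rose in 2 of 16 cases. These were *Hspa1a*, a heat shock gene (1.93 ± 0.25), and *Fos* (0.58 ± 0.11), which was not called by DESeq2 or without cells with mural markers, and higher and lower calls were 1 and 0 of 16 without cells with mural markers, 2 and 0 of 16 against the depth-matched reference and 1 and 0 by DESeq2. The sum of all 17 was 4592 and 7064 CPM against 4400 and 6317 CPM (raw).

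Arterial cells were also compared with 223 venous endothelial cells, which had none of the arterial gate genes and at least 2 of the 5 venous genes. These cells are a subset of the reference, so the comparisons share cells. Their median depth was 5701 and 6529 UMIs. Of 9332 genes tested, 3.53% were higher in arterial cells and 2.65% lower by the edgeR test. Arterial markers outside the gate rose in 19 of 22 cases and none fell. Markers of other cells moved with them, with smooth muscle markers in 7 of 7 cases, neuroblast in 5 of 6, pericyte in 2 of 8, oligodendrocyte precursor in 2 of 7 and fibroblast markers in 2 of 5 higher in arterial cells. *Efnb2* was at 12.9 and 3.99 CPM in venous cells (2.73 ± 0.43), *Hey1* at 18.9 and 5.32 CPM and *Alpl* at 9.95 and 21.3 CPM. These levels were below those of the whole reference in each library. *Cxcl12* was higher in arterial than in venous cells (0.49, edgeR adjusted p = 0.0494), with 1018 and 1006 CPM in the latter.

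Barrier transporters were lower in arterial than in venous cells in 16 of 25 cases and higher in 2, and capillary markers were lower in 8 of 12 and higher in 1. Of venous markers outside the venous gate 4 of 7 were lower and 0 were higher. *Car4*, which is in both the capillary and the venous list, was at 1750 and 1680 CPM in venous cells, above the whole reference (1251 and 1353 CPM). It is counted among these 7 venous markers and among the 11 that follow. Against the whole reference 6 of 11 venous markers fell and 1 rose, a median of -0.70, with higher and lower calls of 0 and 4 of 11 without cells with mural markers, 0 and 5 of 11 against the depth-matched reference and 0 and 3 by DESeq2. Against the reference without venous cells they were 4 higher and 4 lower of 11 (median -0.08). The one that rose against the whole reference was *Vcam1*, an adhesion molecule (1.16 ± 0.18), which was not called by DESeq2, without cells with mural markers or against the depth-matched reference. It differed by 0.17 from venous cells, where it did not pass. *Ctsc*, cathepsin C, fell by 1.37 (it was not called by DESeq2), at 35.9 and 28.4 CPM against 65.1 and 112 CPM, and was at 93.5 and 156 CPM in venous cells.

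Of the smooth muscle genes, some were read in few arterial cells and others in many. *Acta2*, smooth muscle actin, was read in 11 and 13 cells, and 3 cells held 85.1% and 74.2% of its UMIs. *Tagln*, transgelin, was read in 8 and 9 cells and *Myh11*, smooth muscle myosin, in 14 and 12. *Myl9*, a myosin light chain, was read in 25.6% and 26.04% of arterial cells against 9.399% and 9.92% of reference cells, and *Mylk*, the kinase of myosin light chains, in 46.5% and 39.6% against 5.701% and 7.81%. All 8 tested smooth muscle markers rose, 7 of 8 pericyte markers and 4 of 6 fibroblast markers. Against the depth-matched reference 8 of 8, 4 of 8 and 0 of 5 rose, and by DESeq2 7, 5 and 2. With *Mgp* not in the gate, smooth muscle markers were 6 higher and 0 lower of 7 (median 2.72), pericyte markers 1 higher and 1 lower of 8 (median -0.11) and fibroblast markers 0 higher and 1 lower of 7 (median 0.12), beside medians of 3.06, 1.32 and 1.88 with it. With cells thinned before the gate, pericyte markers were 1 higher and 0 lower of 8 (median -0.10). *Rgs5*, a regulator of G protein signalling in pericytes, rose by 2.20 ± 0.10 and stood at -0.08 without cells with mural markers, which had been left out by markers that include *Rgs5*. *Dcn*, decorin of fibroblasts, was read in 2 cells of each library, of which 1 cell held 30 of its 31 UMIs in library 1 and 70 of 73 in library 2. *Sox17*, by comparison, was read in 81 and 82 cells, and 3 cells held 12.7% and 13.3% of its UMIs.

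Markers of the remaining classes were counted in the same way, with all their sums in raw CPM. All 7 oligodendrocyte markers fell, summing to 5777 and 2009 CPM against 8481 and 4421 CPM (raw). So did 4 of 5 erythroid, 4 of 8 microglial and 6 of 9 astrocyte markers. In the astrocyte list 2 genes rose, *Mfge8* and *S1pr1*, the latter read in most arterial and reference cells. Without cells with mural markers, against the depth-matched reference and by DESeq2, the markers called lower numbered 0, 2 and 4 for oligodendrocytes, 2, 4 and 0 for erythroid cells, 0, 0 and 0 for microglia and 5, 4 and 1 for astrocytes. With doublets removed no erythroid or microglial marker was called. Erythroid markers, led by *Hbb-bs*, summed to 16056 and 2003 CPM against 17769 and 4336 CPM. Microglial markers summed to 622 and 1356 CPM against 2036 and 899 CPM. Oligodendrocyte precursor markers rose in 3 of 7 cases (0 without cells with mural markers, 1 depth-matched and 1 by DESeq2), and their sum was 491 and 337 CPM against 275 and 250.4 CPM. Of 9 neuronal markers 1 fell (0 of 8 without cells with mural markers, 1 depth-matched and 0 by DESeq2). All 9 together summed to 265 and 141 CPM against 308 and 158 CPM, with *Stmn3* the most abundant. The 1 tested macrophage marker did not pass. All 6 macrophage markers together summed to 14.04 and 12.97 CPM against 60.2 and 9.38 CPM, with *Cd163* and *Lyve1* at 0 in arterial cells of both libraries. Against venous cells none of the oligodendrocyte, microglial, astrocyte and erythroid markers was called, and of 8 neuronal markers 1 was higher and 1 lower.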

How the data were processed

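The authors made 10x Genomics libraries, ran Cell Ranger (version 4.0 in the submitters' processing notes, an earlier one in the methods) against mm10, and deposited UMI counts as raw matrices. The members and gene lists were chosen with earlier results of these data known, and no deposited cell annotation was used. Counts were summed per library and group. In edgeR 4.0.16 (R 4.3.3) they were filtered by filterByExpr, scaled by TMM and tested by quasi-likelihood with Benjamini-Hochberg adjustment at 0.05. The library was a block, because both groups of a library come from 1 suspension. The 12 gate genes (17 against venous cells) stayed in library sizes and were not tested. Fold changes used a prior count of 2. DESeq2 1.42.0 was an alternative. Doublets were marked by Scrublet (scanpy 1.11.5, expected share 6%), 96 and 159 cells, and stayed in. They made up 5.81% and 9.38% of arterial cells against 3.7% and 5.91% of reference cells. Depth matching drew up to 3 reference cells per arterial cell in each of 4 depth ranges per doubling. The fit was also run on simulated counts drawn with 1 spread for all genes. That run cannot show whether calls hold where genes differ in spread.

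Named genes were the gate genes, the 10 largest rises and falls at 20 CPM or more that moved alike in both libraries, up to 4 called genes per list, and all arterial and Notch genes. Genes outside this rule are named as such or complete a short count, and a few genes are not reported here. Positions are GENCODE release 21 for mouse (GRCm38).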

Additional observations from a re-analysis of the deposited data

How the results depend on the processing

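The number of genes called depended strongly on the fit. Against the reference, 670 higher and 533 lower genes became 157 and 69 by DESeq2, 150 and 33 with no replicate block, 234 and 196 without cells with markers of any other class, 193 and 105 without cells with mural markers, 381 and 252 without *Mgp* in the gate, 366 and 217 with at least 3 gate genes, 190 and 167 with cells thinned after the gate, 145 and 142 thinned before it, and 268 and 170 with the reference matched in depth. Against venous cells, 329 higher and 247 lower became 64 and 41 by DESeq2, 77 and 37 with no replicate block and 181 and 161 without cells with markers of other classes, and 397 were lower with no filter. Higher genes were 55.7% of calls against the reference, 65.7% without TMM and 82.0% with no replicate block. Leaving out mural cells and thinning before the gate were chosen after seeing the data. The cause of these differences was not tested. With no replicate block, 14 of 23 arterial, 3 of 19 Notch, 5 of 22 matrix and 6 of 21 tone genes were called higher and none lower, and 3 of 12 capillary markers, 7 of 26 transporters and 2 of 11 venous markers were called lower and none higher.

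The arterial share of 11.98% was 8.81% without cells of other classes, 6.35% with 3 gate genes and 8.04% after thinning. All 5 left-out gate genes stayed called under DESeq2 and each edgeR alternative run. With 1 library the design allows no test, and *Vegfc* ran from 4.32 to 6.03.

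Over 86 named genes, 165 of 1372 values lost their call (38 with no replicate block, 30 by DESeq2), 3 gained one and 20 changed sign. *Heyl*, a called gene, was at -0.0104 without *Mgp* in the gate. The others had not been called. *Rfng* was at -0.0255 without doublets and -0.0844 without mural cells. *Maml1* was at 0.055 without TMM, 0.0102 with no replicate block, 0.0809 without doublets, 0.00702 at 500 genes, 0.0106 under the mitochondrial limit, 0.0372 without *Mgp*, 0.13 with 3 gate genes and 0.38 without venous cells. *Rbpj* was at 0.18 without other classes, 0.11 without mural cells, 0.0561 thinned after and 0.14 before the gate. *Clu* was at 1.32 without other classes, where edgeR called it, 0.16 without *Mgp*, 0.48 with 3 gate genes, 0.13 thinned after and 0.48 before the gate.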

Other observations

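Genes of cell division were read in a few arterial cells and were singled out after their values were seen. *Mki67*, a marker of cycling cells, was at 39.9 and 47.7 CPM against 6.3 and 4.98 CPM, in 6 and 2 arterial cells, and in library 1, 3 cells held 92.5% of its UMIs. *Top2a*, a topoisomerase of dividing cells, was read in 4 and 3 cells, with 98.8% of its UMIs in 3 cells of library 1. Haemoglobin was as uneven. *Hbb-bs*, a beta globin of red cells, had 9350 UMIs in 39 arterial cells of library 1 and 1360 in 8 of library 2, and 3 cells of each library held 99.3% and 99.6% of them. Its log2 fold change against the reference was -0.64 ± 0.08 in all cells and -4.87 without cells with mural markers. *Hbb-bs* was at 9375 CPM against 10734.5 in library 1 and 1603 against 3172 in library 2 (raw). The SE rests on the spread shared by all genes and does not reflect this difference between libraries.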
